A study of Homo sapiens with 8 samples.

Results

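The genes described here are 49 human genes of DNA double-strand break repair and interstrand crosslink repair, chosen by symbol for what their products do. The choice was made with earlier results of these data known. They are 49 of the 60675 genes in the count tables and of the 16661 with enough reads to be tested, and none of the 49 was lost to the filter on low counts. By role, 11 act in break sensing and checkpoint signalling, 12 in homologous recombination, 7 in end resection, unwinding and resolution of joint molecules, 11 in the Fanconi pathway, 6 in end joining and 2 in mismatch repair. Their transcripts were counted by RNA sequencing in the established pancreatic cancer line Panc10.05 and in an indisulam-resistant derivative obtained by prolonged culture in rising concentrations of the drug. Indisulam is a molecular glue that tags RBM39, a splicing factor, for degradation by way of the ubiquitin ligase DCAF15. There were 8 libraries in 4 groups of 2. Parental cells were untreated or received 2 µM indisulam for 18 h. Resistant cells were either kept on 2 µM indisulam without a break or had been off it for 1 wk, and the latter are called resistant untreated. The study describes no engineered allele in either line, and whether the resistant line is 1 clone or a mixture was not stated in the sources used here.

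A double-strand break is sensed by the MRE11-RAD50-NBN complex and the kinase ATM, and single-stranded DNA at stalled forks and resected ends by the kinase ATR with ATRIP. Homologous recombination copies the lost sequence from a sister chromatid and is largely limited to S and G2 phase, whereas non-homologous end joining religates ends throughout the cell cycle. The Fanconi pathway unhooks crosslinks at replication forks. Its core complex attaches ubiquitin to FANCD2 and FANCI, which then recruit nucleases and recombination factors. Inherited defects in BRCA2, PALB2 or ATM are known risk factors for pancreatic cancer.

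Reads assigned to genes numbered 65266253 to 108002436 per library, and Pearson's r between replicate libraries, over genes on the log2 scale, was 0.996 to 0.998. Expression is given as CPM, the gene's reads at a common library size after TMM scaling, and changes as log2 fold changes. A gene was called when its edgeR quasi-likelihood p, adjusted by Benjamini-Hochberg over all 16661 genes, was under 0.05. The study describes the 2 libraries of a group as technical replicates, so the p-values measure the spread between these libraries. With 2 libraries on each side, exact permutation (two-sided) could not go below p = 0.333 and was not used. Some of the sample notes name A549, a lung line, while titles and cell line fields name Panc10.05, and the titles were followed. Of 10 ductal epithelial markers 7 were at 1 CPM or more, while S100P, CEACAM6 and TSPAN8 were under 0.25 CPM, and none of 5 lung or 5 acinar and endocrine markers reached 1 CPM. The 5 lung markers summed to 0.0258 to 0.198 CPM per library. Of 7 stromal, immune and endothelial markers only COL1A1 reached 1 CPM. Whether these markers tell Panc10.05 from A549 was not tested, so they do not settle which line was sequenced.

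Per kilobase of transcript, the genes spanned a wide range of levels. In parental untreated cells XRCC6 and XRCC5, which encode the Ku70 and Ku80 subunits that cap broken ends, stood at 386 ± 2.35 and 261 ± 1.30 CPM per kb (SD, n = 2). PRKDC, the catalytic subunit of DNA-PK that Ku recruits, followed at 106 ± 2.49 CPM per kb, and NBN at 45.7 ± 0.201. FANCI (41.2), MSH6 (40.05) and FANCA (33.7) were the highest of the replication-linked genes on this scale. At the other end were SLX4 (1.85), FANCG (1.64) and RAD50 (1.09 CPM per kb). RAD50 shares 76.9% of its exonic bases with another annotated protein-coding gene on the same strand that was listed at 0 in every library. The tables hold a line of ambiguous reads, and whether it took reads of RAD50 was not tested, so its level may be understated. BRCA2 and BRCA1 were at 3.48 and 13.7 CPM per kb.

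The genes share some structure. Their median gene length was 78.3 kb against 32.9 kb for all protein-coding genes tested, their median transcript 4592 against 3324 bases, and their median exon number 15 against 9. Exonic GC content was lower, with a median of 42.5% against 48.4%. The largest span was that of RAD51B, at 910.4 kb. Of the 49 genes, 18 overlap exons of another gene that had at least 5% as many reads, and whether strand was used in counting was not stated, so their values carry that uncertainty.

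Promoter windows of 300 bases (250 before and 50 after the start, RefSeq, GRCh38.p14) were at hand for 43 of the 49 genes. They were searched on both strands for the binding motif of E2F, the factor family that drives transcription of S-phase genes, written as TTTCCCGC, TTTCGCGC, TTTGCCGC or TTTGGCGC. It was found in 9 of 43 windows (20.9%), against 5.40% of 15843 protein-coding and 3.99% of 27305 promoters in all. A match of letters is a description and not evidence of binding. The 10 sites in these 9 genes are shown because this motif stood in a larger share of these promoters than of all promoters, each with the motif in capitals, in the direction of the gene and with the span printed.
TOPBP1 (chr3:133661930-133661959, minus strand): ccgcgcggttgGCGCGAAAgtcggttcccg
XRCC2 (chr7:152676102-152676131, minus strand): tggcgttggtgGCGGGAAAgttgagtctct
EXO1 (chr1:241848197-241848226, plus strand): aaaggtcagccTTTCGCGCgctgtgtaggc
FANCA (chr16:89816801-89816830, minus strand): actacaccgcgGCGGCAAAgccaaacgcaa
FANCC, first site (chr9:95317737-95317766, minus strand): ttcgtcggaatTTTCCCGCgacgccgcggg
FANCC, second site (chr9:95317863-95317892, minus strand): ccggggcttccGCGCGAAAccgggaacact
FANCD2 (chr3:10026424-10026453, plus strand): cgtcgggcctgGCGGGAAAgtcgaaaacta
XRCC6 (chr22:41621326-41621344, plus strand): gtcgcttccctGCGCCAAA
MSH6 (chr2:47783137-47783166, plus strand): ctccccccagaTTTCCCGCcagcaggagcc
PMS2 (chr7:6009131-6009160, minus strand): cgggaagtattTTTGCCGCcccgcccggaa
TOPBP1, EXO1, FANCD2 and MSH6 had the motif within 7 bases of the annotated start. The 9 genes did not move as one. In parental cells given indisulam, TOPBP1, FANCA and FANCD2 fell, EXO1, FANCC, XRCC6, MSH6 and PMS2 rose and XRCC2 was not called, whereas in resistant cells all but PMS2 fell. Other motifs were the CCAAT box (CCAAT, 22 of 43 windows, 51.2% against 42.1% of protein-coding promoters), the GC box (GGGCGG, 34 of 43, 79.1% against 64.3%), the ETS motif (CCGGAAGT, 8 of 43, 18.6% against 6.97%), the NRF1 motif (2 of 43, 4.65% against 1.99%) and the cell cycle homology region (TTTGAA or TTCGAA, 5 of 43, 11.6% against 17.5%).

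The first question is how the drug moves these genes in each line. In parental cells 37 of the 49 genes were called (75.5%), 16 higher and 21 lower, where 58.2% of all tested genes were called, 31.6% higher and 26.6% lower. The median log2 fold change was 0.01, equal to that of all tested genes. In resistant cells 40 were called (81.6%), 4 higher and 36 lower, where 50.7% of all tested genes were called, 24.9% higher and 25.8% lower. Their median was -0.22 against 0.01 for all tested genes. These shares of all tested genes are also those to set beside the counts by role below. In bulk RNA a lower level can mean fewer cells that express a gene or less RNA per cell, and these cannot be told apart. The changes were small, with log2 fold changes from -0.70 to 0.37 in parental and from -0.52 to 0.33 in resistant cells. The drug comparisons also differ in design, because parental cells were exposed for 18 h while resistant cells were on the drug without a break and were compared with cells off it for 1 wk.

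**Figure D1:**
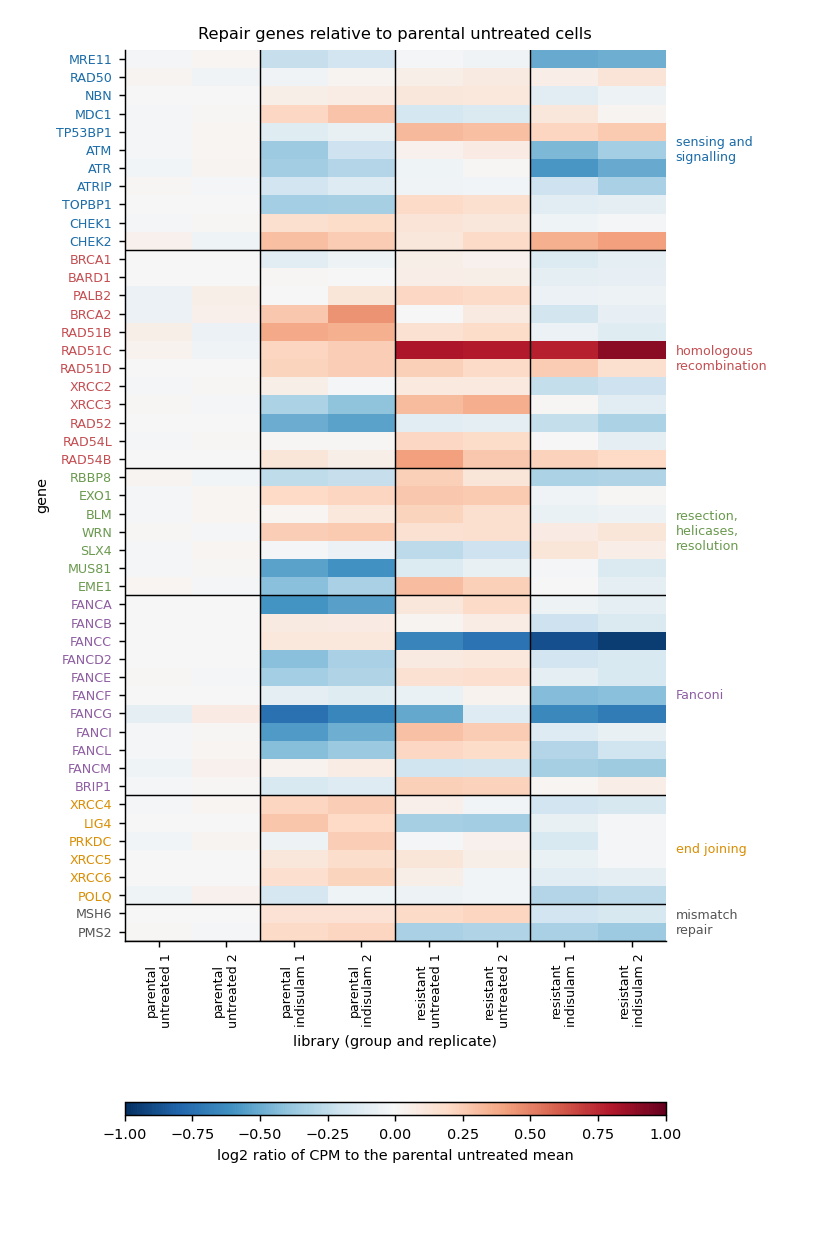
Colours give the log2 ratio of CPM in each of the 8 libraries (columns, 2 per group) to the mean of the parental untreated libraries for the 49 genes (rows, grouped by role and coloured on the left). Blue is lower and red higher. The resistant indisulam columns are mostly blue, RAD51C is red and FANCC blue in all 4 resistant libraries, and replicate columns look alike.

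Counting by group means, 27 of the 49 genes (55.1%) had their lowest mean in resistant cells on indisulam, against 24.3% of all tested genes. The highest mean was in resistant untreated cells for 22 of 49 (44.9%), against 22.0% of all tested genes. Taking both lines, 19 genes fell in each (38.8%, against 10.5% of all tested genes), and 3 rose in each (6.12%, against 11.9%), namely MDC1, CHEK2 and LIG4. Another 8 rose in parental and fell in resistant cells (16.3%, against 7.78%), and none did the reverse, as 3.43% of all tested genes did. RAD50 and PRKDC were called in neither line (4.08%, against 24.8% of all tested genes).

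The Fanconi genes mostly fell. In parental cells 8 of 11 fell and 1 rose, with a median of -0.32, and in resistant cells all 11 fell, with a median of -0.27. FANCA, a subunit of the core complex (ENSG00000187741, GRCh38 chromosome 16, 89726683 to 89816977, minus strand), stood at 183 and 185 CPM without and 121 and 126 with indisulam in parental cells, and at 199 and 210 off and 178 and 172 on the drug in resistant cells. The parental indisulam libraries lay below all others and the groups did not overlap. FANCA fell by 0.57 log2 units in parental cells (SE 0.031, adjusted p 7.3e-13) and by 0.23 in resistant cells (SE 0.031, adjusted p 1.5e-06). ZNF276, which overlaps 19.6% of its exonic bases on the opposite strand and held 16.1% of the reads of the pair, moved by -0.44 in parental and 0.11 in resistant cells, and its part in the FANCA values was not tested.

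FANCI, the partner of FANCD2 in the clamp that the core complex ubiquitinates, stood at 194 and 196 CPM without and 132 and 139 with indisulam in parental cells, and at 239 and 233 off and 178 and 185 on the drug in resistant cells. It fell by 0.53 and 0.38 log2 units in parental and resistant cells. FANCD2 itself was at 74.8 and 74.4, 55.8 and 59.4, 79.4 and 80.3, and 65.5 and 67.0 CPM in the same order of groups, falls of 0.37 and 0.27. Both clamp subunits therefore fell in both lines, and their resistant levels on the drug stayed above the parental levels on the drug in every library.

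FANCG, another core subunit, fell by 0.70 log2 units in parental cells (SE 0.110, adjusted p 1.0e-05), the largest fall among the 49 genes. It stood at 3.94 and 4.43 CPM without and 2.49 and 2.66 with indisulam in parental cells, and at 2.93 and 3.82 off and 2.67 and 2.58 on the drug in resistant cells. It was the most weakly counted gene, with 180 reads in its lowest library, and its resistant untreated libraries differed from each other by 0.38 log2 units. In resistant cells it fell by 0.36, a call lost without resistant untreated replicate 2 (-0.17) or resistant indisulam replicate 2 (-0.33). FANCL, the ubiquitin ligase subunit, fell by 0.40 and 0.44 log2 units, FANCE by 0.32 and 0.28, and the helicase BRIP1 by 0.14 and 0.19. FANCF, the adaptor between core subunits, fell by 0.11 in parental and by 0.41 in resistant cells. The parental call of FANCF was lost without parental untreated replicate 1 (-0.10) or 2 (-0.11) or parental indisulam replicate 2 (-0.12).

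FANCB and FANCM, the latter the translocase that anchors the core complex to DNA, were not called in parental cells (0.08 and 0.06) and fell by 0.22 and 0.15 in resistant cells. FANCC alone among the 11 rose in parental cells, by 0.11 (adjusted p 0.015), a call that was lost under 7 of the 13 alternatives to the processing, stricter thresholds among them, and when any of 6 of the 8 libraries was left out (0.08 to 0.11). It fell by 0.22 in resistant cells.

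Among sensing and signalling genes, 3 of 11 rose and 6 fell in parental cells, and 2 rose and 7 fell in resistant cells. ATR, the apical kinase of the replication stress checkpoint (ENSG00000175054, chromosome 3, 142449007 to 142578733, minus strand), stood at 107 and 111 CPM without and 85.4 and 88.9 with indisulam in parental cells, and at 105 and 109 off and 72.4 and 76.6 on the drug in resistant cells. Treated libraries were below untreated ones in both lines. ATR fell by 0.32 log2 units in parental cells (SE 0.034) and by 0.52 in resistant cells (SE 0.034, adjusted p 1.1e-11), the largest fall of the 49 genes there.

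ATM, the kinase activated at double-strand breaks, stood at 98.1 and 101 CPM without and 77.6 and 86.3 with indisulam in parental cells, and at 102 and 106 off and 73.1 and 78.7 on the drug in resistant cells. It fell by 0.28 and 0.45 log2 units, again with no overlap of treated and untreated libraries. MRE11, the nuclease of the sensor complex (chromosome 11, 94415570 to 94493885, minus strand), was at 77.9 and 79.9, 67.4 and 69.0, 78.1 and 77.1, and 55.6 and 56.2 CPM in the same order. It fell by 0.21 in parental and by 0.47 in resistant cells (adjusted p 1.4e-11).

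The other 2 subunits of the sensor complex differed from MRE11. NBN was not called in parental cells (0.06) and fell by 0.18 in resistant cells, and RAD50 was called in neither (0.00 and 0.03, with 95% intervals of -0.12 to 0.11 and -0.09 to 0.15). ATRIP, the partner of ATR, fell by 0.16 and 0.24, and TOPBP1, the activator of ATR, by 0.34 and 0.27. The scaffold TP53BP1, which protects ends from resection, fell by 0.10 in parental cells and was not called in resistant cells (-0.07).

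The checkpoint kinases downstream moved in other ways. CHEK1, the effector of ATR, stood at 90.8 and 91.9 CPM without and 102 and 104 with indisulam in parental cells, and at 99.8 and 98.8 off and 88.8 and 89.9 on the drug in resistant cells. It rose by 0.17 in parental cells and fell by 0.15 in resistant cells. CHEK2, the effector of ATM, rose in both lines, by 0.28 (25.7 and 24.3 to 30.7 and 29.7 CPM) and 0.23 (27.1 and 28.5 to 31.9 and 33.2 CPM), as did MDC1, which spreads the break signal along chromatin, by 0.24 and 0.23.

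Among recombination genes, 4 of 12 rose and 3 fell in parental cells, and none rose and 9 fell in resistant cells. BRCA2, a mediator of strand exchange in recombination (ENSG00000139618, chromosome 13, 32315086 to 32400268, plus strand), stood at 39.96 and 43.2 CPM without and 49.98 and 56.8 with indisulam in parental cells, and at 41.4 and 44.3 off and 36.5 and 39.4 on the drug in resistant cells. The parental indisulam libraries were above all others. BRCA2 rose by 0.36 in parental cells (SE 0.072, adjusted p 0.0036) and was not called in resistant cells (-0.17, adjusted p 0.11).

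RAD51B, a recombination mediator, rose by 0.37 in parental cells (SE 0.067), from 6.28 and 5.79 to 7.84 and 7.71 CPM. In resistant cells it fell by 0.26, from 6.72 and 6.87 to 5.78 and 5.55 CPM (-0.23 and not called without resistant indisulam replicate 2). RAD51C and RAD51D, of the same family, rose by 0.23 and 0.24 in parental cells and were not called in resistant cells (0.05 and -0.01).

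XRCC3, the partner of RAD51C, fell in both lines, by 0.36 (48.8 and 48.2 to 38.9 and 36.6 CPM) and 0.39 (60.3 and 62.4 to 48.96 and 45.1 CPM). It shares 76.7% of its exonic bases with KLC1 on the opposite strand, and KLC1 fell by 0.23 in parental cells but rose by 0.19 in resistant cells. XRCC2, of the same family, was not called in parental cells (0.02) and fell by 0.31 in resistant cells. Members of a single gene family thus rose, fell or were not called in the same parental comparison.

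RAD52, which anneals single strands, stood at 12.6 and 12.6 CPM without and 8.94 and 8.72 with indisulam in parental cells, and at 11.7 and 11.9 off and 10.7 and 10.12 on the drug in resistant cells. It fell by 0.51 in parental cells (SE 0.053, adjusted p 2.3e-08) and by 0.18 in resistant cells (-0.14 and not called without resistant indisulam replicate 2). BRCA1, the ubiquitin ligase that promotes resection and recombination, was at 97.02 and 97.1, 89.5 and 93.8, 101 and 100.2, and 88.2 and 91.2 CPM in the same order. Its falls, 0.08 (adjusted p 0.025) and 0.17 (adjusted p 0.00011), were among the smallest called, and the first was lost with the DESeq2 Wald test. Its partner BARD1 and the BRCA2 partner PALB2 were not called in parental cells (0.00 and 0.06) and fell by 0.14 and 0.26 in resistant cells, as did the translocases RAD54L, by 0.25, and RAD54B, by 0.13 (not called in parental cells, 0.01 and 0.09). The RAD54B call was lost under 9 of the 13 alternatives, stricter thresholds among them.

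**Figure D2:**
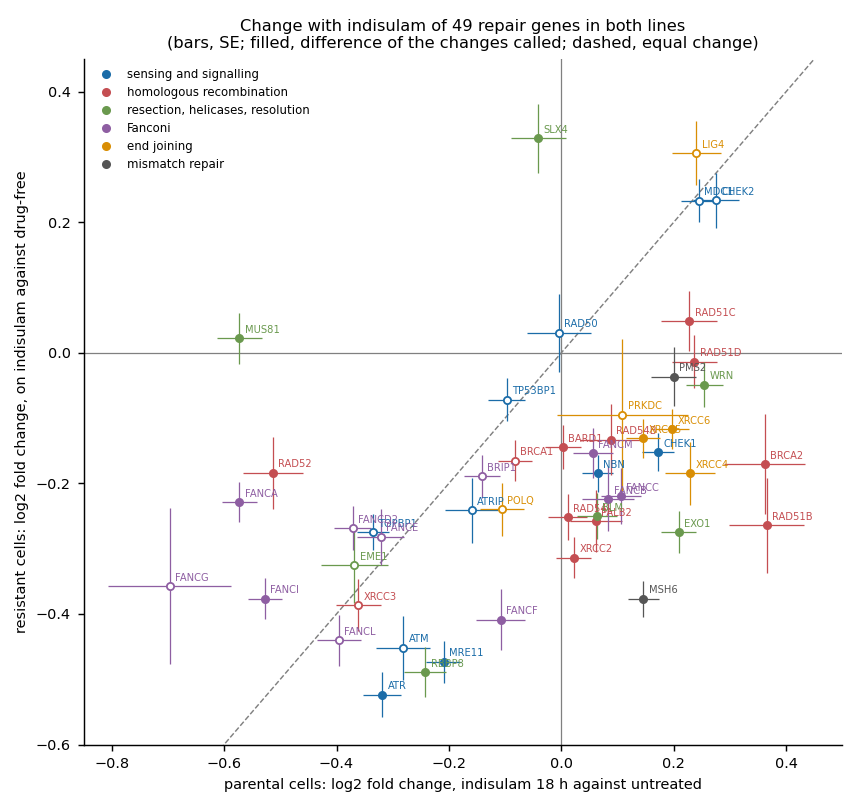
Each point is 1 of the 49 genes, with its log2 fold change with indisulam in parental cells (x axis) and in resistant cells (y axis) and SE bars, coloured by role. Filled points are genes whose change differed between the lines by the test of the difference, and the dashed line marks equal change. Most points lie below the horizontal zero line, MUS81 and SLX4 lie far above the dashed line, and RAD51B, BRCA2, EXO1 and MSH6 lie far below it.

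Resection, helicase and resolution genes split. RBBP8 (CtIP), which starts resection with MRE11, fell by 0.24 and 0.49 log2 units, from 54.9 and 52.9 to 45.2 and 46.0 CPM in parental and from 63.6 and 58.6 to 43.4 and 43.8 CPM in resistant cells. EXO1, the exonuclease of long-range resection, rose by 0.21 in parental cells and fell by 0.27 in resistant cells. The helicase WRN rose by 0.25 in parental cells and was not called in resistant cells (-0.05), while its relative BLM was not called in parental cells (0.06) and fell by 0.25 in resistant cells.

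MUS81 and EME1 encode the subunits of 1 nuclease that cuts branched DNA. MUS81 (ENSG00000172732, chromosome 11, 65857126 to 65867653, plus strand) stood at 60.2 and 61.0 CPM without and 41.7 and 39.8 with indisulam in parental cells, and at 55.2 and 57.5 off and 59.8 and 54.9 on the drug in resistant cells. It fell by 0.57 in parental cells (SE 0.039, adjusted p 7.3e-11) and was not called in resistant cells (0.02, adjusted p 0.67). MUS81 overlaps CFL1 on the opposite strand over 13.9% of its exonic bases, and CFL1 held 96.0% of the reads of the pair. CFL1 changed by 0.14 and 0.03 in the same comparisons. EME1 fell in both lines, by 0.37 and 0.33, and overlaps LRRC59, which held 96.8% of the reads of that pair.

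SLX4, the scaffold that binds MUS81-EME1 and other nucleases (chromosome 16, 3581181 to 3611606, minus strand), had the largest rise in resistant cells, by 0.33 log2 units (SE 0.052, adjusted p 1.3e-05). It stood at 13.4 and 13.7 CPM without and 13.3 and 13.0 with indisulam in parental cells, and at 11.3 and 11.8 off and 14.8 and 14.2 on the drug in resistant cells. The resistant untreated libraries were the lowest of the 8.

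End joining and mismatch repair genes rose more often than they fell in parental cells. Of 6 end joining genes 4 rose and 1 fell there, against 1 risen and 4 fallen in resistant cells. XRCC4 and LIG4, which form the ligase complex, rose by 0.23 and 0.24 in parental cells. In resistant cells they parted, with XRCC4 falling by 0.18 and LIG4 rising by 0.31. LIG4 stood at 17.7 and 17.7 CPM without and 21.4 and 20.4 with indisulam in parental cells, and at 14.01 and 13.9 off and 16.8 and 17.6 on the drug in resistant cells. XRCC5 and XRCC6 rose by 0.15 and 0.20 in parental cells and fell by 0.13 and 0.12 in resistant cells. PRKDC was called in no comparison. It stood at 1398 and 1445 CPM without and 1374 and 1690 with indisulam in parental cells, and at 1401 and 1467 off and 1278 and 1407 on the drug in resistant cells, so the parental indisulam libraries differed from each other by more than any group means did. Its SE of 0.116 in the parental comparison allowed a 95% interval of -0.12 to 0.34. POLQ, the polymerase of microhomology-mediated joining, fell by 0.11 and 0.24.

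MSH6, a subunit of a mismatch recognition complex (ENSG00000116062, chromosome 2, 47695530 to 47810063, plus strand), stood at 171 and 171 CPM without and 189 and 189 with indisulam in parental cells, and at 195 and 199 off and 149.5 and 153 on the drug in resistant cells. MSH6 rose by 0.15 in parental cells and by contrast fell by 0.38 in resistant ones (adjusted p 8.1e-11), with no overlap of treated and untreated libraries in either. FBXO11 overlaps 22.7% of its exonic bases on the opposite strand and held 28.7% of the reads of the pair. FBXO11 rose by 0.17 in parental and by 0.11 in resistant cells, and its part in the MSH6 values was not tested. PMS2, an endonuclease subunit of mismatch repair, rose by 0.20 in parental cells and was not called in resistant cells (-0.04). It stood at 21.4 and 21.1 CPM without and 24.2 and 24.6 with indisulam in parental cells, and at 17.0 and 17.3 off and 17.0 and 16.5 on the drug in resistant cells, so all resistant libraries were below all parental ones. PMS2 has pseudogene copies, and so do parts of CHEK2, FANCD2 and BRCA1. Reads of low mapping quality were left unassigned, so their counts rest on the positions that map uniquely.

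**Figure D3:**
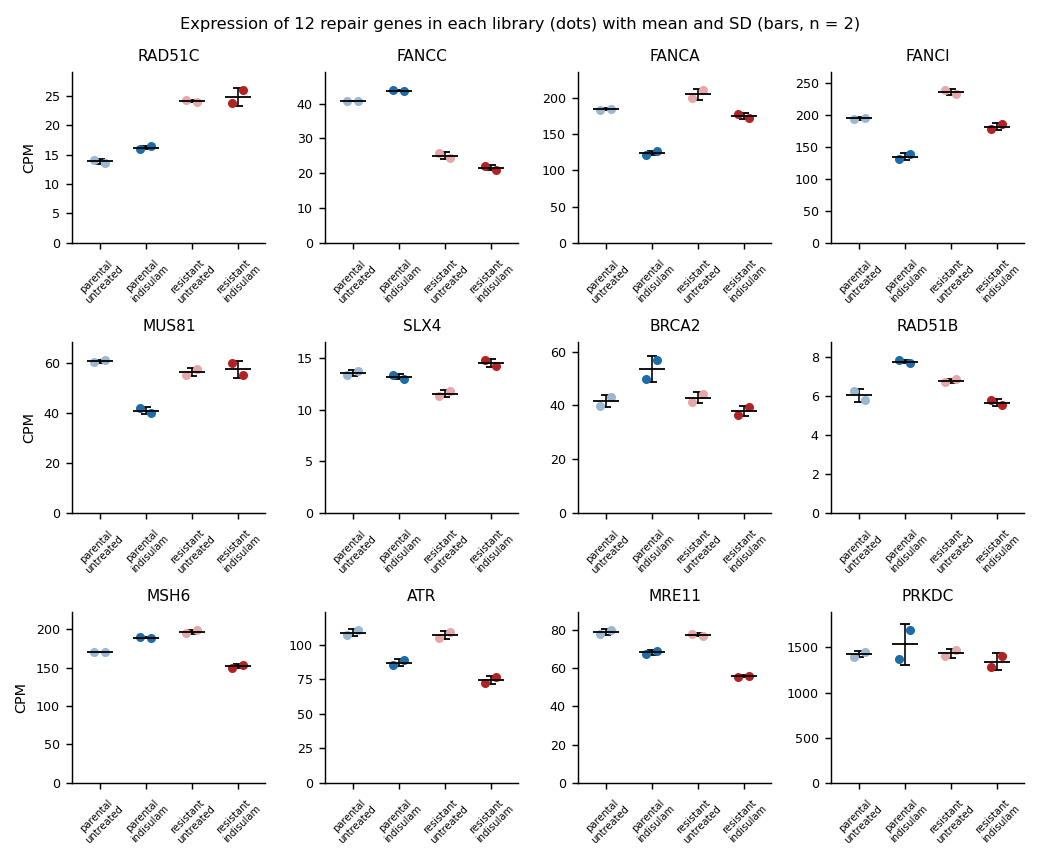
CPM of 12 genes in each of the 8 libraries (dots, colours by group), with the mean and SD of each group (bars, n = 2), on linear axes from 0. RAD51C and FANCC separate the lines with and without the drug, FANCA and MUS81 dip in parental indisulam cells, ATR and MRE11 step down with the drug in both lines, and the PRKDC libraries of parental indisulam cells lie far apart.

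Next, the lines were compared. Without the drug 34 of the 49 genes were called (69.4%), 26 higher and 8 lower in resistant cells, where 60.1% of all tested genes were called, 30.3% higher and 29.9% lower. With the GC and length correction the split was 21 higher and 13 lower. On the drug 39 were called (79.6%), 15 higher and 24 lower, where 69.5% of all tested genes were called, 34.6% higher and 34.9% lower. With library totals alone it was 17 higher and 18 lower, a scaling that moved the median of all tested genes to 0.09 and left the members' median minus that of all genes at -0.11, as with TMM scaling. Among genes with a mean CPM of at least 1, a filter on level, the split was 17 and 19 and the members' median minus that of all genes was -0.05. The median difference was 0.09 off and -0.11 on the drug, against -0.02 and 0.00 for all tested genes. On the drug the GC and length correction gave a split of 14 and 25, and the members' median minus that of all genes was -0.06. With protein-coding genes alone that value was 0.08 off and -0.08 on the drug, against 0.11 and -0.11 in the main fit.

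RAD51C and FANCC differed most. RAD51C, a recombination mediator that also counts as a Fanconi gene (ENSG00000108384, chromosome 17, 58692573 to 58735611, plus strand), stood at 14.1 and 13.5 CPM without and 16.0 and 16.4 with indisulam in parental cells, and at 24.2 and 23.9 off and 23.7 and 25.9 on the drug in resistant cells. All 4 resistant libraries were above all 4 parental ones. The difference was 0.80 log2 units off the drug (SE 0.048, adjusted p 5.0e-13) and 0.62 on it (SE 0.048, adjusted p 4.8e-11).

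FANCC, a core complex subunit (ENSG00000158169, chromosome 9, 95099054 to 95426796, minus strand), stood at 40.7 and 40.7 CPM without and 43.9 and 43.7 with indisulam in parental cells, and at 25.7 and 24.4 off and 22.1 and 21.0 on the drug in resistant cells. All resistant libraries were below all parental ones. Its log2 fold change was -0.70 off the drug (SE 0.039, adjusted p 1.1e-13) and -1.02 on it (SE 0.039, adjusted p 1.0e-16). These were the only members still called in either comparison of the lines when each gene was tested against a change of 0.5 log2 units (glmTreat) instead of 0. AOPEP, which overlaps FANCC on the opposite strand with 21.5% of the reads of the pair, was also lower in resistant cells (-0.51 off and -0.23 on the drug).

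Other genes were higher in resistant cells both off and on the drug, 12 in all with RAD51C (24.5%, against 20.4% of all tested genes): TP53BP1 (0.31 off, 0.34 on), TOPBP1 (0.17, 0.24), CHEK2 (0.15, 0.11), XRCC3 (0.34, 0.31), EME1 (0.27, 0.32), FANCA (0.15, 0.50), FANCD2 (0.10, 0.20), FANCE (0.16, 0.20), FANCI (0.28, 0.43), FANCL (0.20, 0.15) and BRIP1 (0.23, 0.19). Of these, 6 are Fanconi genes. With the GC and length correction FANCA and FANCE changed sign off the drug and XRCC3 and FANCE on it. Lower in both were 5 genes (10.2%, against 19.4% of all tested genes): MDC1 (-0.16, -0.17), FANCC, FANCM (-0.19, -0.40), LIG4 (-0.34, -0.28) and PMS2 (-0.31, -0.55).

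A further 10 genes were higher in resistant cells off the drug and lower on it (20.4%, against 4.38% of all tested genes), namely NBN, CHEK1, PALB2, RAD51B, XRCC2, EXO1, BLM, WRN, XRCC5 and MSH6. MSH6 went from 0.20 to -0.32, EXO1 from 0.27 to -0.22 and RAD51B from 0.17 to -0.46. The calls of NBN, PALB2, BLM and WRN on the drug were lost with library totals alone, and those of RAD51B, XRCC2 and XRCC5 off it. The RAD51B call off the drug was also lost without parental untreated replicate 2 or any resistant library (0.11 to 0.19). FANCG was lower off the drug (-0.32), a call lost without parental untreated replicate 2 (-0.23) or resistant untreated replicate 1 (-0.13), and was not called on it (0.02). SLX4 and MUS81 crossed the other way (4.08%, against 3.33% of all tested genes), from -0.23 and -0.10 off to 0.14 and 0.49 on the drug. On the drug SLX4 was at -0.18 under the correction for GC and length, and was not called without parental indisulam replicate 2 (0.14) or resistant indisulam replicate 1 (0.11). Off the drug the MUS81 call was lost without parental untreated replicate 1 (-0.11) or 2 (-0.09) or resistant untreated replicate 1 (-0.07). RAD54B stood at 11.6 and 11.5 CPM without and 12.6 and 11.996 with indisulam in parental cells, and at 15.4 and 13.9 off and 13.5 and 13.2 on the drug in resistant cells. It was higher by 0.34 off the drug and was not called on it (0.12). It shares 66.0% of its exonic bases with FSBP on the same strand, which was lower in resistant cells (-0.25).

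**Figure D4:**
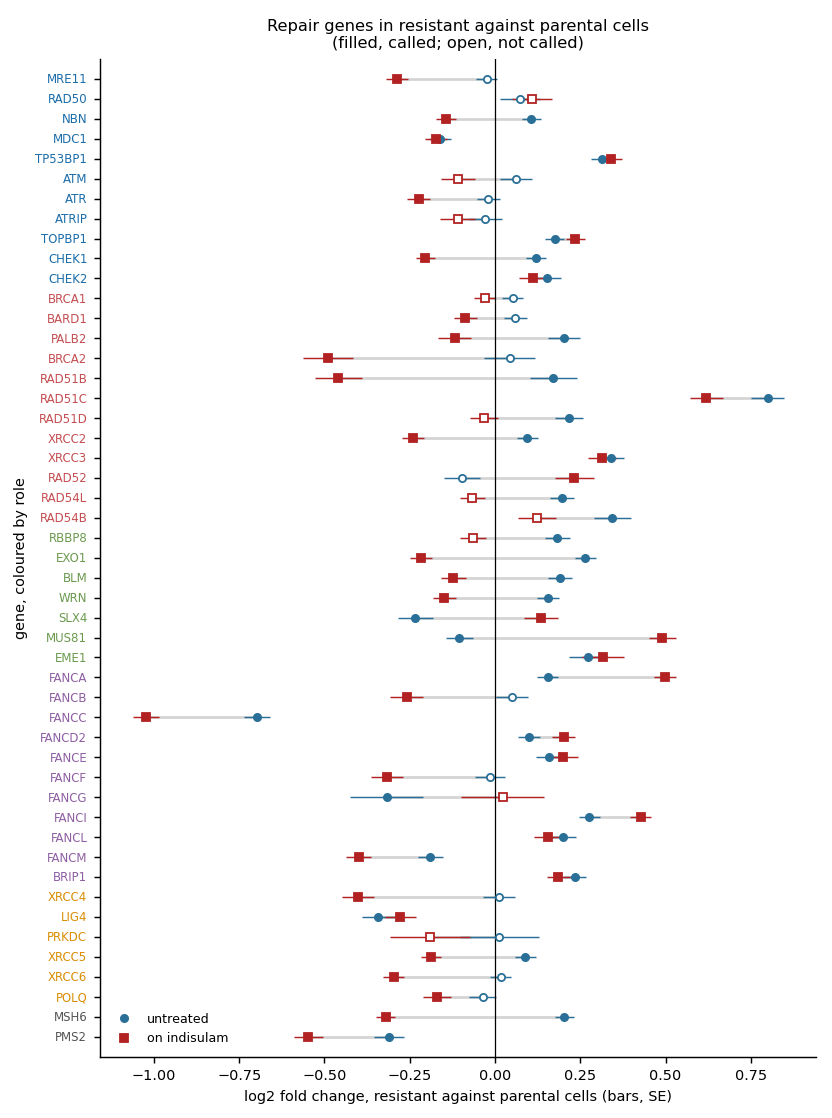
For each of the 49 genes, the log2 fold change of resistant against parental cells is plotted untreated (blue circles) and on indisulam (red squares) with SE bars, and filled symbols were called. RAD51C lies far to the right and FANCC far to the left in both. For many recombination genes, XRCC5 and MSH6 the circle lies right of 0 and the square left of it.

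The difference of the responses, the change in resistant minus the change in parental cells, was tested directly. It was called for 31 of 49 genes (63.3%), 5 higher and 26 lower, where 50.1% of all tested genes were called, 22.7% higher and 27.5% lower. The median was -0.20 against 0.01. With library totals alone the split was 11 higher and 19 lower. That scaling moved the median of all tested genes to 0.13, and the members' median minus that of all genes was -0.21 as with TMM scaling. It was smaller with genes of a mean CPM of at least 1 (-0.14, split 9 and 23, members' median -0.12) and with the GC and length correction (-0.12, split 8 and 24, members' median -0.12), and larger with no filter (-0.33). With protein-coding genes alone it was -0.15, with a split of 8 and 23.

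The largest negative differences were those of RAD51B (-0.63, SE 0.098, adjusted p 1.3e-05), BRCA2 (-0.53, SE 0.105, adjusted p 0.0042) and MSH6 (-0.52, SE 0.039, adjusted p 3.4e-10). EXO1 (-0.48) and XRCC4 (-0.41) followed. By role, 9 of 12 recombination genes, 4 of 7 resection and resolution genes, 3 of 6 end joining genes and both mismatch genes had a called negative difference, against 4 of 11 Fanconi and 4 of 11 signalling genes. The positive ones were MUS81 (0.59, SE 0.056, adjusted p 2.1e-08), SLX4 (0.37), FANCA (0.34), RAD52 (0.33) and FANCI (0.15). For FANCA, RAD52 and FANCI the positive difference was a smaller fall in resistant cells. Leaving out the 18 genes that overlap another expressed gene left 31, of which 1 was higher and 19 lower.

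GC content moved with this difference across the 49 genes (Spearman rho 0.38, a description over genes that share libraries), and gene length moved the other way (rho -0.35). Transcript length moved with the ratio of replicate 2 to replicate 1 within parental indisulam (rho 0.38) and parental untreated cells (0.37). In resistant cells rho was 0.30 on and 0.17 off the drug. PRKDC had the widest ratio in both indisulam groups. The part of GC content, gene length and transcript length in the differences beyond the correction above was not tested.

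The other genes of the same pathways, 79 from 5 lists of which 78 were tested, moved in both directions. In parental cells 23 rose and 26 fell, with a median of 0.00, and in resistant cells 7 rose and 37 fell, with a median of -0.13. Of all tested genes 31.6% rose and 26.6% fell in parental cells, and the parental counts lay near those shares. In resistant cells 24.9% of all tested genes rose and 25.8% fell. By list, 16 of 22 recombination genes fell in resistant cells and 1 rose, and 11 fell and 5 rose of 24 signalling genes. Of 14 further Fanconi genes 4 fell, of 13 end joining genes 3 fell, and of 5 mismatch genes 3 fell and 1 rose. In parental cells the rises and falls were 7 and 8 for recombination, 7 and 7 for signalling, 4 and 3 for Fanconi, 2 and 7 for end joining and 3 and 1 for mismatch genes. The largest falls in parental cells were those of the helicase RECQL5 (-0.67) and the Fanconi-associated nuclease FAN1 (-0.66), and the largest rise that of HUS1 (0.57), a subunit of the checkpoint clamp. In resistant cells RMI2, a partner of BLM, fell by 0.62 and FAN1 by 0.59, while H2AX, the histone phosphorylated at breaks, rose by 0.33. Between untreated lines 20 of the 78 were higher and 26 lower, on the drug 11 and 40, and the difference of the responses was positive for 7 and negative for 32. The shares of all tested genes were 30.3% and 29.9%, 34.6% and 34.9%, and 22.7% and 27.5% in the same order.

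**Figure D5:**
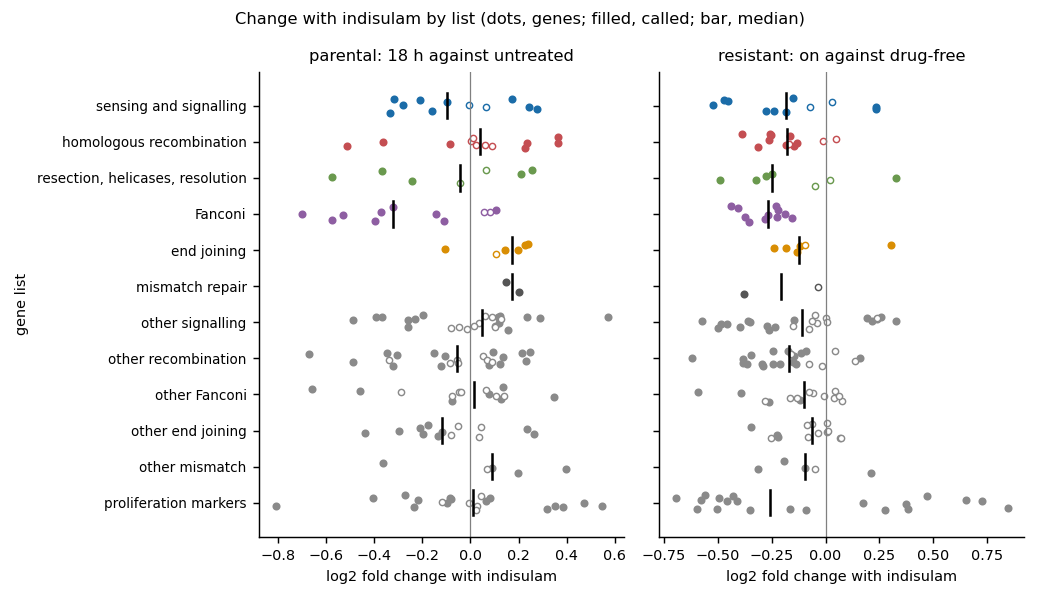
Log2 fold changes with indisulam in parental (left) and resistant cells (right) by list, with 1 dot per gene, filled where called, and a bar at the median of each list. Coloured lists hold the 49 genes, grey lists the other genes of the pathways and the proliferation markers. The median of the 11 Fanconi genes lies left of 0 in both panels, with FANCB, FANCC and FANCM right of 0 in the left one, and the proliferation markers of resistant cells spread to both sides.

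Markers of the cell cycle moved in both directions, and their part in the results above was not tested. Of 20 proliferation markers 8 rose and 12 fell in resistant cells and 7 rose and 8 fell in parental cells. Of all tested genes 24.9% rose and 25.8% fell in resistant cells, and 31.6% rose and 26.6% fell in parental cells. The median log2 fold change of the 20 markers was -0.26 in resistant and 0.01 in parental cells. For the 49 genes these medians were -0.22 and 0.01. Their summed level was 6486 and 6507 CPM without and 6860 and 7235 with indisulam in parental cells, and 6229 and 6123 off and 5867 and 5871 on the drug in resistant cells. The largest called changes of the list in parental cells were those of CCNB1, a mitotic cyclin (0.55), and TYMS, which makes thymidylate (-0.81). In resistant cells they were those of the mitotic kinase PLK1 (0.85) and the replicative helicase subunit MCM6 (-0.70). TYMS also fell in resistant cells (-0.56) and MCM6 in parental cells (-0.10). Between untreated lines CCNE1, the cyclin of S-phase entry, was higher (1.55) and MKI67 lower (-0.93) in resistant cells. Of the 20 markers 11 were higher and 8 lower in resistant cells off the drug, and 4 and 12 on it. The shares of all tested genes were 30.3% and 29.9% off the drug, and 34.6% and 34.9% on it. The markers' medians were 0.11 off and -0.12 on the drug, against 0.09 and -0.11 for the 49 genes. For the difference of the responses their median was -0.07, against -0.20 for the 49 genes.

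Targets of p53, which respond to DNA damage, were mixed. Of 22, 8 rose and 7 fell in parental cells and 9 rose and 6 fell in resistant cells. Of all tested genes 31.6% rose and 26.6% fell in parental cells, and 24.9% rose and 25.8% fell in resistant cells. Between the lines 7 were higher and 9 lower off the drug, and 9 and 10 on it. The shares of all tested genes were 30.3% and 29.9% off the drug, and 34.6% and 34.9% on it. CDKN1A, the p53-induced cell cycle inhibitor, was at 25.7 and 24.0 CPM in parental untreated and 52.9 and 52.4 in resistant untreated cells, a difference of 1.08, and of 1.21 on the drug. The difference of the responses was positive for 6 of the 22 and negative for 2, against 22.7% and 27.5% of all tested genes.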

How the data were processed

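The authors made stranded libraries from polyadenylated RNA, aligned paired reads to GRCh38 with HISAT2 (version 2.2.1 per the labels) and deposited, for every library, unnormalized read counts by gene. The strand setting and annotation release of the counting are not given in the sources used here. Of all reads 37.9 to 44.9% stood on 9 lines not assigned to a gene (duplicates, unmapped, ambiguous and others) and were left out. Intervals and SE cover these libraries only, and counts without molecular identifiers bound counting error alone.

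Symbols came from GENCODE 44 (60419 of 60675 identifiers matched). The test was that of edgeR 4.0.16 under R 4.3.3 (filterByExpr, TMM, robust quasi-likelihood fit of 4 group means to 8 libraries, 5 contrasts). SE was the log2 fold change divided by the square root of F. The code was tested on simulated data, in which far fewer genes were called than here. In the simulated parental response 70 of 97 changes of 0.5 log2 units were recovered, and 15 of 169 calls were false. In the simulated difference of the responses these were 62 of 98 and 14 of 156. Figures were drawn with matplotlib 3.10.9. The members, the lists and the tests were chosen with earlier results of these data known. Every member may be named, and some items of the other lists are not reported here. Values in all libraries were given for BRCA1, BRCA2, ATM, ATR, CHEK1, PRKDC, FANCD2 and RAD52 and for the 3 largest called rises and falls of non-overlapping libraries in each contrast. Of the other lists the genes named are those with the largest called rise or fall. The alternatives were 13 settings (among them DESeq2 1.42.0) and each of 8 libraries left out in turn. The main fit did not pair samples by replicate number, and whether same-numbered libraries were handled together is not stated in the sources used here. Deviations of same-numbered libraries correlated from -0.19 to 0.14 over 6 pairs of groups, which cannot settle it. For the difference of the responses, overlap was judged on differences between same-numbered libraries.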

Additional observations from a re-analysis of the deposited data

Results flagged for a closer look

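For 31 of the 49 genes the change with indisulam was not the same in both lines when the difference was tested directly (edgeR interaction contrast, adjusted over all tested genes), and 50.1% of all tested genes did. The values are log2 differences, resistant minus parental. Among recombination genes they were -0.63 for RAD51B, -0.53 for BRCA2, -0.34 for XRCC2, -0.32 for PALB2, -0.26 for RAD54L, -0.25 for RAD51D, -0.22 for RAD54B, -0.18 for RAD51C, -0.15 for BARD1 and 0.33 for RAD52. Among signalling genes they were -0.32 for CHEK1, -0.26 for MRE11, -0.25 for NBN and -0.20 for ATR. Resection, helicase and resolution genes had -0.48 for EXO1, -0.31 for BLM, -0.30 for WRN, -0.25 for RBBP8, 0.37 for SLX4 and 0.59 for MUS81. Fanconi genes had -0.33 for FANCC, -0.31 for FANCB, -0.30 for FANCF, -0.21 for FANCM, 0.15 for FANCI and 0.34 for FANCA. The rest were -0.41 for XRCC4, -0.31 for XRCC6, -0.28 for XRCC5, -0.52 for MSH6 and -0.24 for PMS2.

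CHEK1, RAD51B, EXO1, FANCC, XRCC4, XRCC5, XRCC6 and MSH6 rose in parental and fell in resistant cells. The compared exposures differed, 18 h in parental cells and continuous culture in resistant cells, so line and exposure cannot be told apart in these values.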

How the results depend on the processing

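Counts of called genes stayed within 1.5 times under the alternatives other than a test against 0.5 log2 units. When each library was left out in turn they ran from 32 to 37 in parental cells, 36 to 42 in resistant cells, 28 to 34 between untreated lines, 33 to 41 between lines on the drug and 28 to 32 for the difference of the responses. Same-numbered libraries were not treated as paired in the main fit. With the replicate block the counts were 37, 40, 34, 42 and 33 in that order, with 1 call of a single gene lost (RAD54B in resistant cells) and 6 gained. The DESeq2 Wald test gave 32, 38, 31, 35 and 30. Tested against 0.5 log2 units (glmTreat), the counts were 0, 0, 2, 2 and 0. With no such margin and an unadjusted edgeR p under 0.05 they were 38, 41, 34, 41 and 35.

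Some single values changed sign, and the cause was not tested. With the GC and length correction the log2 values were -0.10 for BARD1 and -0.0596 for XRCC2 in the parental response, -0.0539 for FANCA, -0.0097 for FANCE and -0.0622 for XRCC6 between untreated lines, and 0.0137 for BARD1, -0.038 for XRCC3, -0.18 for SLX4 and -0.0879 for FANCE on the drug. With the replicate block added they were -0.10 for BARD1 in the parental response, -0.0539 for FANCA, -0.0096 for FANCE and -0.0623 for XRCC6 between untreated lines, and 0.0145 for BARD1, -0.0369 for XRCC3, -0.18 for SLX4, -0.0882 for FANCE and -0.26 for FANCG on the drug. With library totals alone BARD1 on the drug was at 0.00035. The difference of the responses was lost under 9 alternatives for RAD51C and RAD54B and under 8 for BARD1, stricter thresholds among them. Of the 13 alternatives, the fit to the compared groups alone does not apply to this contrast, which uses all 4 groups.

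Small changes rested on single libraries, and some of these calls were also lost when other libraries were left out. Without parental untreated replicate 2 the calls of FANCF (-0.11), BRCA1 (-0.08), TP53BP1 (-0.08) and POLQ (-0.06) in the parental response and of CHEK2 (0.11), RAD51B (0.11), FANCD2 (0.10) and XRCC5 (0.08) between untreated lines were lost. Without parental untreated replicate 1 those of ATRIP (-0.14) and BRCA1 (-0.08) in the parental response were lost, and BRCA1 was also lost without parental indisulam replicate 1 (-0.07). Without resistant untreated replicate 1 those of XRCC4 (-0.14), XRCC6 (-0.07) and RAD54B (-0.05) in the resistant response were lost. Without parental indisulam replicate 2 those of PALB2 (-0.03), BLM (-0.06), POLQ (-0.08) and CHEK2 (0.11) on the drug and of RAD51C in the difference of the responses (-0.14) were lost. Without resistant indisulam replicate 2 those of FANCL (0.11) and CHEK2 (0.09) on the drug were lost. Between untreated lines RAD51B was also lost without any resistant library (0.16 to 0.19). XRCC5 was also lost there without parental untreated replicate 1, resistant untreated replicate 1 or either resistant indisulam library (0.06 to 0.09). On the drug PALB2 was also lost without any resistant library (-0.09 to -0.12), and BARD1 without any parental indisulam or resistant library (-0.05 to -0.09). Each of the 8 libraries, left out, lost 5 to 14 calls of single genes. With all libraries thinned to the smallest total, 5 calls of single genes were lost and 4 gained. The lowest count of any of the 49 genes was 180 (FANCG).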
